A study of Mus musculus with 16 samples.

Results

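The genes described here encode sensors of foreign or misplaced RNA and DNA and the adaptor closest to them: Ddx58, Ifih1, Dhx58, Mavs, Zbp1, Eif2ak2, Tlr3, Ifi204 and Ifi207. They were chosen by name, as 9 of 54532 entries in a table of raw read counts from mouse brain, and all 9 were among the 17736 genes tested. RNA was sequenced from female mice of 9 months in 4 groups of 4 libraries. The groups combine the Ch25h genotypes +/+ and -/- with Tau- and Tau+. The enzyme that Ch25h encodes is cholesterol 25-hydroxylase, -/- animals lack it, and Tau+ was taken to mean a tau transgene. The labels name neither the transgene, nor its promoter, nor the background strain, and all the animals share sex and age. Nothing in the labels says whether each library came from a separate animal, so the p-values measure the spread between these libraries. The title of the series places the sensor-interferon route and the oxysterol enzyme on 1 axis in tau pathology, and the comparisons ask how tau status and the absence of Ch25h change the sensor genes.

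As background, RIG-I-like receptors are helicases that bind viral or self double-stranded RNA in the cytosol and signal through Mavs on mitochondria to type I interferon. AIM2-like receptors, coded by the Ifi200 cluster, and the enzyme cGAS recognise DNA, and cGAS leads to interferon through STING. Interferon then raises transcription of many of the sensors themselves through interferon-stimulated response elements (ISREs), so the sensor genes are part of the response that they start. In brain, microglia and astrocytes are well-known producers of these proteins.

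Totals were 15530352 to 25602500 counts per library. Ch25h had 0 counts in all 8 Ch25h-/- libraries and 5 to 30 counts in each Ch25h+/+ library, as its genotype labels say. Prnp, the prion protein gene, was higher in Tau+ by 1.10 on the log2 scale in both Ch25h genotypes, and Mapt, the mouse tau gene, was not called with tau in either. The labels give frontal cortex as the tissue while the design text gives hippocampus. Summed markers of cortical layers reached 552 to 700.2 CPM (counts-per-million) and hippocampal markers 27.0 to 75.2 CPM, while choroid plexus markers varied from 15.8 to 2737 CPM between libraries. Libraries also differed in transcript CT010467.1, annotated as ribosomal RNA: 7 libraries, all of them Ch25h-/-, lay at 2289 to 5684 CPM of the total (called rRNA-rich here), and the other 9 lay at 111 to 475. Malat1, a nuclear non-coding RNA, followed the same split, at 392 to 1041 CPM of the total in the 7 and 167 to 290.3 in the 9. The only Ch25h-/- library among those 9 was Ch25h-/- Tau+ replicate 1. Every comparison of Ch25h-/- with Ch25h+/+ is therefore almost the same split as the one by library class.

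Promoter windows from RefSeq (build GRCm38.p6, from 250 bases before to 50 after the annotated start) were found for 6 of the 9 genes: Ddx58, Ifih1, Mavs, Eif2ak2, Tlr3 and Ifi207. The windows were searched on both strands for the ISRE letters TTTCNNTTTC and for the letters of the gamma-activated site (GAS) TTCNNNGAA, which reads the same on both strands. ISRE letters were in 4 of the 6 windows, and in 1131 of all 32851 windows of that length, or 3.443%. They were not in the windows of Mavs and Tlr3. The windows follow RefSeq starts, while the gene positions given below follow GENCODE M21. The Tlr3 window (chr8:45410331-45410630) lies wholly inside the GENCODE gene, so the bases before its GENCODE start were not searched. GAS letters were in 1 of the 6, that of Eif2ak2 at positions -178 to -170, and in 8.298% of all windows. Such a match is a description of the letters and not evidence of a bound factor. The 4 windows with ISRE letters are shown because they include Ddx58 and Ifi207, both called with tau below, beside Ifih1 and Eif2ak2, which were not. All 4 genes lie on the minus strand, each window is written 5′ to 3′ on the strand of its gene, and capitals mark the ISRE letters. The Ddx58 window is chr4:40239776-40240075, that of Ifih1 is chr2:62646206-62646505, that of Eif2ak2 is chr17:78882523-78882822 and that of Ifi207 is chr1:173741760-173742059.
Ddx58: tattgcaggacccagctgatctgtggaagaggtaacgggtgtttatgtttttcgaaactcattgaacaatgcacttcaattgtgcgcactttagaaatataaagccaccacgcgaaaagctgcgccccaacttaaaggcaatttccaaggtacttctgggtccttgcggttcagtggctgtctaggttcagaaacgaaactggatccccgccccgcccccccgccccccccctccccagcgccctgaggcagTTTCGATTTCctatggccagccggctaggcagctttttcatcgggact
Ifih1: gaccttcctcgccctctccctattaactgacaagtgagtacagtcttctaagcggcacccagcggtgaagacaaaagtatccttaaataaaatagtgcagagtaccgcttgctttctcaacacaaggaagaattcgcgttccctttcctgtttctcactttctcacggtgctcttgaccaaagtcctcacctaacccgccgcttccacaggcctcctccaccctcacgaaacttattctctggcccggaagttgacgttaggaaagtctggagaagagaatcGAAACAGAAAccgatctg
Eif2ak2: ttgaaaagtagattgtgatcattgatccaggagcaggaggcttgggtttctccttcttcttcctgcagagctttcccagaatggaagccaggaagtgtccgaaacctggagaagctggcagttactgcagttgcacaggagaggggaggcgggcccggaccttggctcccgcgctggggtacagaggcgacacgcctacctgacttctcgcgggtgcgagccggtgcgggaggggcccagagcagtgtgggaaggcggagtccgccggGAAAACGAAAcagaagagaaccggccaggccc
Ifi207: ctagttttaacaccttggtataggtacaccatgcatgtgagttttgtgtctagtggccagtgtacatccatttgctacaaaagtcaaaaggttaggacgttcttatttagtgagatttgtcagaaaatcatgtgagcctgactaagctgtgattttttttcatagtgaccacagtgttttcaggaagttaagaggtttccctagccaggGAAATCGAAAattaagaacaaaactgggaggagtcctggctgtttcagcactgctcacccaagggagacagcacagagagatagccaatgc

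Counted from the first base annotated in RefSeq as position 1, the match covers positions 3 to 12 in Ddx58, 33 to 42 in Ifih1, 19 to 28 in Eif2ak2 and -41 to -32 in Ifi207. In Ddx58 the letters run as searched, and in the other 3 windows they run as the reverse complement. By the RefSeq starts the match thus lay just inside the transcribed part in 3 of these windows and just before it in the window of Ifi207. In GENCODE the minus-strand gene Ifi207 starts at 173741747. Its whole window lies before that base, so the match is farther from the GENCODE start.

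**Figure D1:**
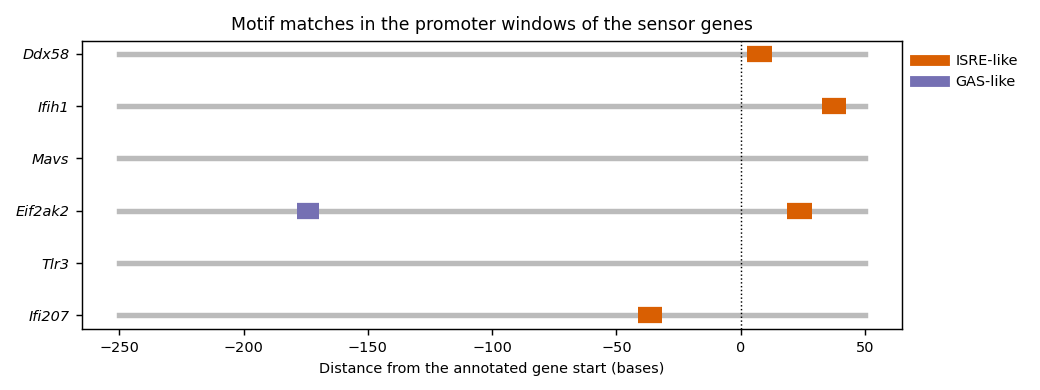
Positions of motif letters in the 6 promoter windows, with the distance from the RefSeq gene start in bases on the x axis and 1 grey line per gene. The ISRE matches (orange) of Ddx58, Ifih1, Eif2ak2 and Ifi207 lie between positions -41 and 42, and the GAS match (purple) is in Eif2ak2. The windows of Mavs and Tlr3 have neither, and that of Tlr3 lies inside its GENCODE gene.

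Levels between genes were compared as mean CPM per kilobase of exons over all 16 libraries. Tlr3 (2.67) and Mavs (2.65) were highest, followed by Eif2ak2 (1.21), Ddx58 and Ifih1 (0.83 each) and Dhx58 (0.531). Ifi207 (0.122), Zbp1 (0.122) and Ifi204 (0.121) were lowest and cannot be ranked among themselves. The first 6 genes had at least 16 counts in every library. The last 3 had 0 to 32 counts per library and passed the filter on low counts (0.543 CPM of the total in enough libraries) through Ch25h+/+ Tau+, where 4 of 4 libraries reached it, against at most 1 library in any other group. These 3 genes therefore had to differ between groups to be tested at all, and they are described one by one. Counts set against all genes below are over the first 6 genes, called well-counted here.

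**Figure D2:**
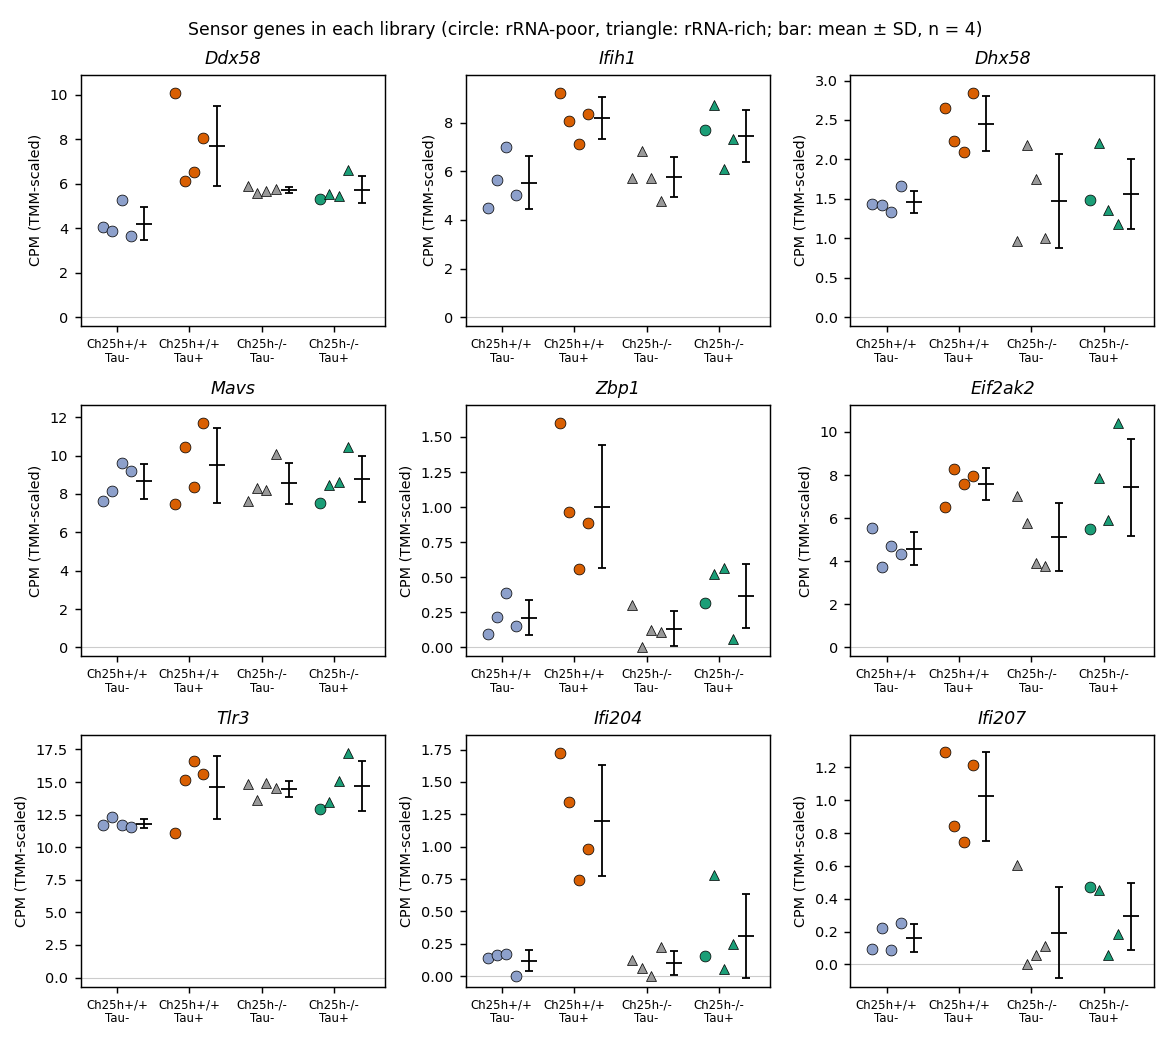
Level of each sensor gene in TMM-scaled CPM (y axis) in the 16 libraries, by group (x axis), with circles for rRNA-poor and triangles for rRNA-rich libraries and bars for mean ± SD (n = 4). In Zbp1, Ifi204 and Ifi207 the Ch25h+/+ Tau+ libraries lie at 0.558 CPM or more. Libraries of other groups reach 0.568 CPM in Zbp1, 0.780 CPM in Ifi204 and 0.602 CPM in Ifi207. In Mavs all 4 groups overlap.

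With Ch25h present, the RNA helicase gene Ddx58 rose 1.82-fold with tau and alone was called among the 6 well-counted sensor genes. The AIM2-like receptor genes Ifi204 and Ifi207 were also called higher, but entered the test only because they are high in the Ch25h+/+ Tau+ group. Tests were edgeR quasi-likelihood tests (two-sided) fitted to all 16 libraries, with p-values adjusted by Benjamini-Hochberg over 17736 genes, and a gene is called when its adjusted p is under 0.05. Of the 6 well-counted genes 1 was called (Ddx58), against 1.56% of all genes called and 1.47% called higher. All 6 had a log2 difference above 0 (47.8% of all genes), 5 had an unadjusted p under 0.05 (9.38% of all genes), and in 4 every Tau+ library lay above every Tau- library (3.89% of all genes). Their median log2 difference was 0.65, and that of all genes tested was -0.01.

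Among the RIG-I-like receptors, Ddx58 encodes RIG-I, which binds short double-stranded RNA with a 5′ triphosphate (chromosome 4, 40203773 to 40239828, minus strand, GENCODE M21 on GRCm38). It measured 4.07, 3.88, 5.26 and 3.63 CPM in Ch25h+/+ Tau- and 10.1, 6.14, 6.51 and 8.08 CPM in Ch25h+/+ Tau+. The groups did not overlap, and replicate 1 of Ch25h+/+ Tau+ was the highest of all 16 libraries. The difference was 0.86 on the log2 scale (SE 0.16, 95% interval 0.52 to 1.21), with an edgeR adjusted p of 0.00691. In Ch25h-/- the values were 5.90, 5.59, 5.66 and 5.74 CPM without tau and 5.32, 5.52, 5.45 and 6.62 CPM with it. Those 8 libraries lay above every Ch25h+/+ Tau- library and, except for Tau+ replicate 4, below every Ch25h+/+ Tau+ library. In a fit of only the 8 Ch25h+/+ libraries the Ddx58 rise was 0.87 with an adjusted p of 0.0621, which did not pass.

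Ifih1 encodes MDA5, which binds long double-stranded RNA (chromosome 2, 62595798 to 62646255, minus strand). It measured 4.48, 5.63, 6.99 and 5.04 CPM in Ch25h+/+ Tau- and 9.24, 8.08, 7.11 and 8.36 CPM in Ch25h+/+ Tau+. Without Ch25h the values were 5.72, 6.82, 5.72 and 4.80 CPM without tau and 7.71, 8.71, 6.08 and 7.31 CPM with it. The Ch25h+/+ groups did not overlap, by the small gap between 6.99 and 7.11 CPM, and the Ch25h-/- groups did. The Ch25h+/+ difference was 0.56 on the log2 scale (SE 0.16) with an edgeR adjusted p of 0.104, and the Ch25h-/- one was 0.37 (SE 0.16). DESeq2 called Ifih1 in Ch25h+/+ (adjusted p 0.0356).

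Dhx58 encodes LGP2, a helicase without the signalling domain of the other receptors that modulates both of them (chromosome 11, 100694884 to 100704271, minus strand). It measured 1.43, 1.42, 1.34 and 1.66 CPM in Ch25h+/+ Tau- and 2.65, 2.23, 2.09 and 2.85 CPM in Ch25h+/+ Tau+. The groups did not overlap, and the difference was 0.74 on the log2 scale (SE 0.26, edgeR adjusted p 0.256). Without Ch25h it spread widely, at 0.964, 2.18, 1.75 and 1.0 CPM without tau and 1.49, 2.21, 1.36 and 1.19 CPM with it. The exons of Dhx58 share 141 bases with its antisense partner Dhx58os, and strand use in the counting is not stated, so reads that fall in this stretch cannot be assigned to one of the pair.

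Mavs encodes the mitochondrial adaptor through which Ddx58 and Ifih1 signal (chromosome 2, 131234063 to 131248025, plus strand). It measured 7.62, 8.15, 9.62 and 9.22 CPM in Ch25h+/+ Tau- and 7.45, 10.4, 8.37 and 11.7 CPM in Ch25h+/+ Tau+. The Ch25h-/- libraries measured 7.65, 8.29, 8.20 and 10.1 CPM without tau and 7.55, 8.45, 8.64 and 10.4 CPM with it. All 4 groups overlapped, and the Ch25h+/+ tau difference was 0.14 on the log2 scale (95% interval -0.18 to 0.45, edgeR adjusted p 0.917). The interval reaches from a slight fall to a rise of less than the fitted rise of Ddx58. Mavs lies 661903 bases from Prnp on chromosome 2.

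Eif2ak2 encodes PKR, the kinase that binds double-stranded RNA and shuts down translation by phosphorylating the initiation factor eIF2-alpha (chromosome 17, 78852564 to 78882573, minus strand). It measured 5.54, 3.72, 4.70 and 4.33 CPM in Ch25h+/+ Tau- and 6.53, 8.29, 7.58 and 7.94 CPM in Ch25h+/+ Tau+. The groups did not overlap, and the difference was 0.73 on the log2 scale (SE 0.22, edgeR adjusted p 0.136). DESeq2 and limma-voom both called Eif2ak2 here, with adjusted p of 0.0433 and 0.0300. In Ch25h-/- it measured 7.05, 5.76, 3.92 and 3.79 CPM without tau and 5.52, 7.86, 5.91 and 10.4 CPM with it. These groups overlapped, their difference was 0.53 (SE 0.22), and Tau+ replicate 4 was the highest of all 16 libraries. Eif2ak2 exons share 174 bases with Gm26637 and 47 with n-R5s29 on the opposite strand.

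Tlr3 encodes a receptor that senses double-stranded RNA in endosomes and not in the cytosol (chromosome 8, 45395665 to 45411080, minus strand). It measured 11.7, 12.3, 11.7 and 11.5 CPM in Ch25h+/+ Tau- and 11.1, 15.1, 16.6 and 15.6 CPM in Ch25h+/+ Tau+. Among the Tau+ libraries replicate 1 was below every Tau- library, and the others were above them all. The difference was 0.31 on the log2 scale (SE 0.12, edgeR adjusted p 0.346), and without that replicate it was 0.42 with an adjusted p of 0.0393. Limma-voom with quality weights also called Tlr3 (adjusted p 0.0320). In Ch25h-/- it measured 14.9, 13.6, 14.9 and 14.6 CPM without tau and 12.9, 13.4, 15.1 and 17.2 CPM with it. Both Ch25h-/- groups thus lay above every Ch25h+/+ Tau- library. Tlr3 exons share 381 bases with the antisense gene Gm45542.

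Zbp1 encodes a sensor of Z-form nucleic acids that can start necroptosis (chromosome 2, 173206612 to 173218923, minus strand). It had 2, 4, 9 and 3 counts in Ch25h+/+ Tau- (0.0924, 0.219, 0.388 and 0.151 CPM) and 26, 23, 12 and 19 counts in Ch25h+/+ Tau+ (1.60, 0.968, 0.558 and 0.887 CPM). The groups did not overlap, and the fitted difference was 2.17 on the log2 scale (SE 0.56) with an edgeR adjusted p of 0.0651, which did not pass. Zbp1 was called by DESeq2 (adjusted p 0.0276) and by edgeR without a filter (adjusted p 0.0307). The Ch25h-/- libraries had 5, 0, 2 and 2 counts without tau and 8, 8, 10 and 1 counts with it, and these groups overlapped.

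Ifi204 encodes a p204 protein of the AIM2-like family that binds DNA (chromosome 1, 173747293 to 173766943, minus strand). It had 3, 3, 4 and 0 counts in Ch25h+/+ Tau- (0.139, 0.164, 0.173 and 0 CPM) and 28, 32, 16 and 21 counts in Ch25h+/+ Tau+ (1.72, 1.35, 0.744 and 0.980 CPM). The groups did not overlap, and the fitted rise was 3.24 on the log2 scale (SE 0.65, 95% interval 1.87 to 4.61), with an edgeR adjusted p of 0.0112. In Ch25h-/- it had 2, 1, 0 and 4 counts without tau and 4, 12, 1 and 4 counts with it. Of the latter, replicate 2 alone reached the level of the Ch25h+/+ Tau+ libraries, at 0.780 CPM.

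Ifi207 encodes another AIM2-like protein and ends 5546 bases from Ifi204 (chromosome 1, 173723427 to 173741747, minus strand). It had 2, 4, 2 and 5 counts in Ch25h+/+ Tau- (0.0924, 0.219, 0.0863 and 0.252 CPM) and 21, 20, 16 and 26 counts in Ch25h+/+ Tau+ (1.29, 0.841, 0.744 and 1.21 CPM). The groups did not overlap, and the fitted rise was 2.63 on the log2 scale (SE 0.64, 95% interval 1.28 to 3.99), with an edgeR adjusted p of 0.0448. The Ch25h-/- libraries had 10, 0, 1 and 2 counts without tau and 12, 7, 1 and 3 counts with it, and replicate 1 was the highest of each group. The Ifi207 call just passed and was lost in 12 of 16 fits that each left out 1 library (adjusted p 0.0112 to 0.165). Ifi204 and Ifi207 are close relatives, so the authors' counting could have split reads between them.

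**Figure D3:**
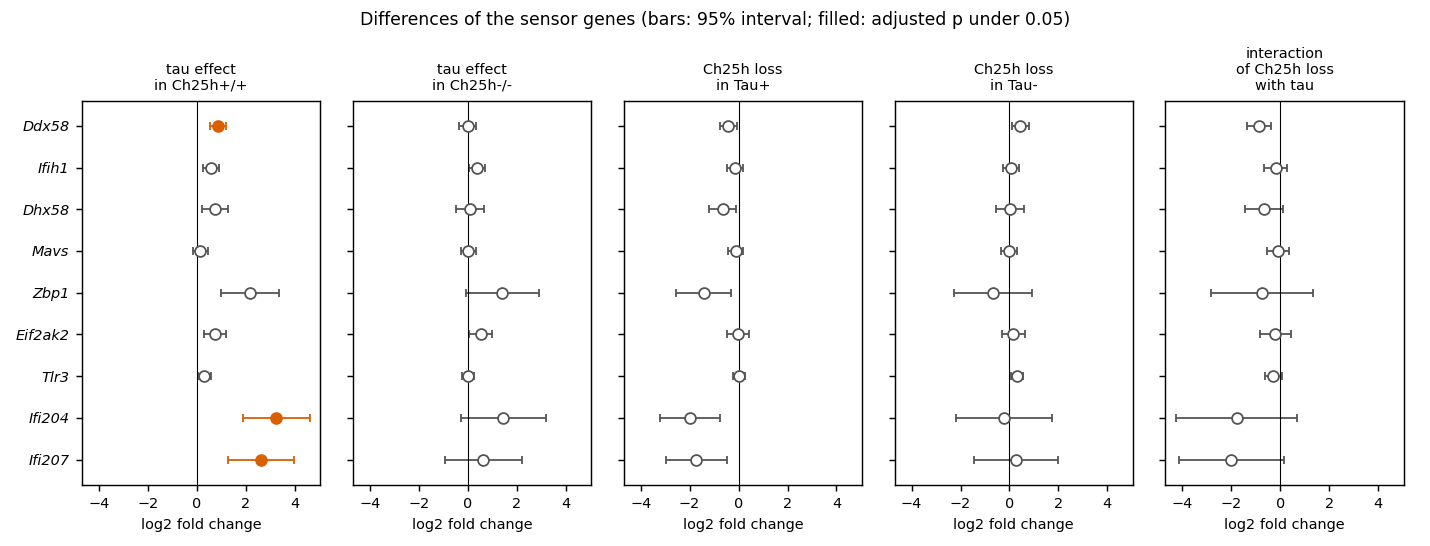
Log2 fold change (x axis) of the 9 sensor genes in 5 comparisons, with bars for the 95% interval and filled points for an adjusted p under 0.05. The filled points are Ddx58 (0.86), Ifi204 (3.24) and Ifi207 (2.63), all in the tau comparison of Ch25h+/+.

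Summed RNA of microglial markers was also higher with tau in Ch25h+/+. The 10 microglial markers summed to 331 to 360.2 CPM in Ch25h+/+ Tau- and 501 to 632 CPM in Ch25h+/+ Tau+, and 5 of the 10 were called higher (among them Csf1r, C1qa, Cx3cr1 and Tyrobp). In Ch25h-/- the sums were 327 to 362 CPM without tau and 323 to 397 CPM with it, and none of the 10 was called. None of the 10 was at 0 in all libraries of any group. The 6 astrocyte markers summed to 2966 to 3270 CPM in Ch25h+/+ Tau- and 2765 to 4989.8 CPM in Ch25h+/+ Tau+, and 1 of the 6 was called higher (Gfap, the intermediate filament gene of astrocytes). Replicate 1 was the lowest of the Ch25h+/+ Tau+ libraries and of all 16. In Ch25h-/- the astrocyte sums were 3247 to 3995 CPM without tau and 3418 to 4145 CPM with it, and none of the 6 was called with tau. In the other marker lists none was called. Border macrophage and monocyte markers were above 0 in 5 of 5 tested (median log2 difference 0.69, sums of 4.08 to 11.5 against 9.02 to 15.6 CPM). Markers of endothelium and pericytes, oligodendrocytes and choroid plexus were above 0 in 6 of 6 each (medians 0.21, 0.28 and 0.31), and those of blood in 4 of 5 (0.64). Striatal markers were above 0 in 0 of 6 (-0.50, sums of 175 to 275 against 159 to 178 CPM), and neuronal markers in 2 of 6 (-0.03). The part of any of these markers in the sensor differences was not tested, and in bulk tissue fewer cells of a type and less RNA per cell cannot be told apart.

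**Figure D4:**
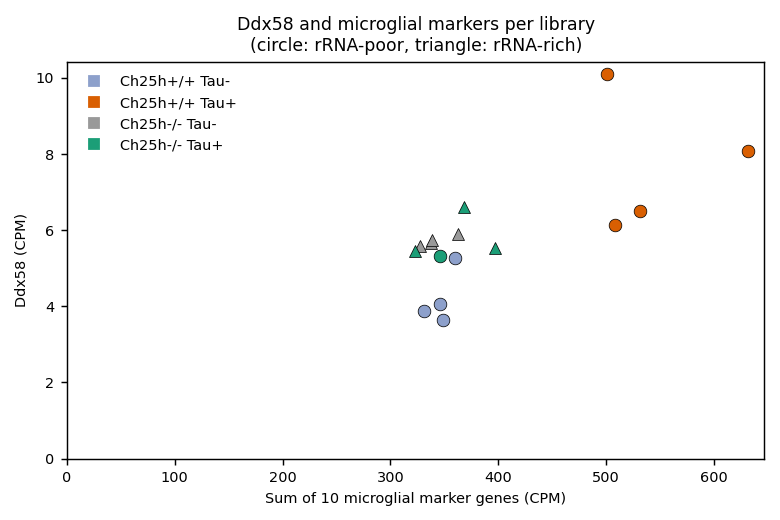
Level of Ddx58 (y axis, CPM) against the summed level of 10 microglial markers (x axis, CPM), 1 point per library, coloured by group and shaped by library class. The 4 Ch25h+/+ Tau+ libraries lie at 501 CPM or more of marker RNA and at 6.14 to 10.1 CPM of Ddx58. The other 12 lie at 397 CPM or less of marker RNA and at 3.63 to 6.62 CPM of Ddx58. Within Ch25h+/+ Tau+ the library with the least marker RNA (501 CPM) has the most Ddx58 (10.1 CPM). Marker sums are alike in Ch25h-/- Tau- (327 to 362 CPM) and Ch25h+/+ Tau- (331 to 360.2 CPM). Ddx58 lies at 5.59 to 5.90 CPM in the former and at 3.63 to 5.26 CPM in the latter.

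With Ch25h absent, no sensor gene was called with tau, in either direction, against 0.0395% of all genes called in that comparison. Of the 6 well-counted genes 5 had a log2 difference above 0 (52.8% of all genes), and 2 had an unadjusted p under 0.05 (3.68% of all genes): Ifih1 and Eif2ak2. In 0 of these 6 did the groups stay apart (2.14% of all genes), and the groups of the 3 low genes overlapped too. DESeq2 and limma-voom also called none of the 9. The Ddx58 difference was 0.00 on the log2 scale, with a 95% interval of -0.35 to 0.34 that ends below the rise fitted in Ch25h+/+. The intervals of the 3 low genes were wide, from -0.09 to 2.92 for Zbp1, from -0.29 to 3.20 for Ifi204 and from -0.93 to 2.20 for Ifi207. Within the rRNA-rich Ch25h-/- libraries alone the Ddx58 difference was 0.02, that of Ifih1 0.34 and that of Eif2ak2 0.64.

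The difference between both tau effects was tested as an interaction. No sensor gene was called, against 0.0338% of all genes, and DESeq2 and limma-voom called none either. In the 6 well-counted genes the interaction was below 0 in all (53.7% of all genes lay above 0), and 1 had an unadjusted p under 0.05 (4.13% of all genes). That gene was Ddx58, at -0.86 on the log2 scale (SE 0.23, 95% interval -1.35 to -0.38, unadjusted edgeR p 0.00155, adjusted p 0.330). Dhx58 was at -0.66 (SE 0.37) and Mavs at -0.11 (SE 0.21). Ifi204, Ifi207 and Zbp1 were at -1.78, -2.0 and -0.75, with 95% intervals that all included 0. A smaller tau effect without Ch25h was therefore not shown for any sensor gene after adjustment.

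Among Tau+ libraries, no sensor gene was called by edgeR with the absence of Ch25h. Of all genes 3.55% were called, 1.14% higher and 2.4% lower. Of the 6 well-counted genes 1 had a log2 difference above 0 (50.7% of all genes), and 2 had an unadjusted p under 0.05 (23.9% of all genes), a share not far from the background. They were Ddx58 at -0.42 (SE 0.16, edgeR adjusted p 0.125) and Dhx58 at -0.65 (SE 0.26, adjusted p 0.138). Over all 16 libraries Ifih1, Mavs, Eif2ak2 and Tlr3 lay between -0.14 and 0.00 on the log2 scale, and these values moved with library class as given below.

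The 3 low genes were tested because they are high in Ch25h+/+ Tau+, so lower values against that group were favoured by the filter and are given as a description. Ifi204 was at -2.0 (SE 0.58, edgeR adjusted p 0.0628), Ifi207 at -1.73 (SE 0.59, adjusted p 0.0967) and Zbp1 at -1.43 (SE 0.53, adjusted p 0.120). For Ifi207 every Ch25h-/- library lay below every Ch25h+/+ library (5.74% of all genes were lower without overlap, and nothing is read from this for a gene so chosen). For Ifi204 the groups overlapped through Ch25h-/- replicate 2, and without that library the difference was -2.93 with an adjusted p of 0.0270. DESeq2 called none of the 9 (it gave no adjusted p for these 3), and limma-voom with quality weights called Ifi204 and Ifi207.

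Library class moved with this comparison, since 3 of the 4 Ch25h-/- Tau+ libraries were rRNA-rich and no Ch25h+/+ library was. Within the rRNA-poor libraries, where Ch25h-/- Tau+ replicate 1 stands alone and is assumed to vary like the others, the difference was -0.52 for Ddx58, -0.71 for Dhx58, -1.64 for Zbp1, -2.88 for Ifi204 and -1.10 for Ifi207. In the same libraries Eif2ak2 was at -0.46, Mavs at -0.33, Tlr3 at -0.17 and Ifih1 at -0.08, so the first 3 of these lay farther below 0 than over all 16 libraries. None of the 9 passed, and a fit with library class as a covariate gave nearly the same values (Eif2ak2 -0.46, Mavs -0.33 and Tlr3 -0.18). The sums of microglial markers also differed between these groups (501 to 632 against 323 to 397 CPM), and 6 of the 10 were called lower. Of the 6 astrocyte markers 1 was called lower, Gfap. In the other marker lists none was called. Oligodendrocyte markers were above 0 in 0 of 6 (median log2 difference -0.26) and those of endothelium and pericytes in 1 of 6 (-0.23). Border macrophage and monocyte markers were above 0 in 1 of 5 (-0.26), neuronal ones in 3 of 6 (0.01) and choroid plexus ones in 6 of 6 (0.47). The part of any of these markers in the sensor values was not tested.

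Without tau, the absence of Ch25h left no sensor gene called by edgeR or limma-voom, against 1.03% of all genes called and 0.214% called higher. DESeq2 called neither Mavs nor Tlr3 and gave no adjusted p for the others. Of the 6 well-counted genes 5 had a log2 difference above 0 (51.4% of all genes). Ddx58 at 0.44 (SE 0.17, edgeR adjusted p 0.146) and Tlr3 at 0.29 (SE 0.12, adjusted p 0.169) had an unadjusted p under 0.05 (20.9% of all genes). In both, every Ch25h-/- library lay above every Ch25h+/+ library (7.64% of all genes were higher without overlap). All 4 Ch25h-/- Tau- libraries were rRNA-rich and all 4 Ch25h+/+ Tau- libraries were not, so genotype and library class cannot be told apart within these groups. With library class as a covariate, which rests on the 1 rRNA-poor Ch25h-/- library, Tlr3 was at 0.06 and Ddx58 at 0.30. Eif2ak2 was at -0.39 in that fit and at 0.16 without the covariate, and Mavs was at -0.30 and -0.02. Dhx58 was at -0.08 with the covariate and Ifih1 at 0.12, while the low genes Zbp1, Ifi204 and Ifi207 were at -0.97, -1.36 and 1.29. None of the 9 was called in that fit.

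Ordered by mean level, Ch25h+/+ Tau+ stood first for 5 of the 6 well-counted genes, and for Tlr3 Ch25h-/- Tau+ stood first. In Zbp1, Ifi204 and Ifi207 the filter on low counts favoured Ch25h+/+ Tau+ as the highest group. Neighbouring groups in the order of the well-counted genes overlapped in their libraries, except in Ddx58 and Tlr3 between the third group, Ch25h-/- Tau-, and the lowest, Ch25h+/+ Tau-.

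The other genes of the sensor pathways were read from 8 lists of 117 genes, of which 96 were tested. Of these, 1 (Cxcl10) passed the filter on low counts only through Ch25h+/+ Tau+ and was left out of the counts and medians over these lists, which leaves 95. With tau in Ch25h+/+, 10 of the 95 were called higher, where 1.47% of all genes were, and 0 lower, and their median log2 difference was 0.08 against -0.01 for all genes. With tau in Ch25h-/- none was called (0.0395% of all genes). With Ch25h loss in Tau+, 1 was called higher and 5 lower (1.14% and 2.4% of all genes), with a median of -0.13 against 0.00 for all genes. With Ch25h loss in Tau- 1 was called higher (Rnaset2b, a ribonuclease), where 0.214% of all genes were, and for the interaction none (0.0338% of all genes).

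In the list of other RNA sensors 12 genes were tested, among them the endosomal DNA sensor gene Tlr9 and the inflammasome gene Nlrp1b, and 2 rose with tau in Ch25h+/+. They were Oas2, which makes the 2′-5′ oligoadenylates that activate RNase L (1.68 on the log2 scale, edgeR adjusted p 0.0259), and the helicase gene Ddx60 (1.21, adjusted p 0.0327). Of 7 other cytosolic DNA sensors tested none was called in any comparison, where 0.0338% to 3.55% of all genes were. With shares so small, nothing is read from 0 of 7. With tau in Ch25h+/+, 4 of the 7 had a log2 difference above 0 (47.8% of all genes), with a median of 0.36. Among them Aim2 was at 0.79 (edgeR adjusted p 0.168). Mb21d1, which encodes cGAS, measured 1.31 to 1.42 CPM in Ch25h+/+ Tau- and 1.11 to 2.31 CPM in Ch25h+/+ Tau+, groups that overlapped, and its difference was 0.36 (edgeR adjusted p 0.809). Another 7 Ifi200 genes had too few counts to be tested. Together they had 18 to 67 counts in each Ch25h+/+ Tau+ library, against 2 to 19 in Ch25h+/+ libraries without tau. In Ch25h-/- the range was 2 to 14 without tau and 1 to 10 with it.

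Of 20 adaptors, kinases and transcription factors, 2 rose with tau in Ch25h+/+. Both are transcription factors of the interferon response, Irf7 (1.79, edgeR adjusted p 0.00290) and Irf5 (0.69, adjusted p 0.0164). With Ch25h loss in Tau+ both were called lower (-1.15 and -0.88), and Chuk, a kinase of the NF-kappaB route, was called higher (0.44). Tmem173, which encodes STING, was higher in each Ch25h+/+ Tau+ library (4.21 to 5.28 CPM) than in any Ch25h+/+ Tau- library (2.67 to 4.14 CPM), but its difference of 0.61 did not pass (edgeR adjusted p 0.219).

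Regulators of the RIG-I-like receptors gave 2 calls of 18 with tau in Ch25h+/+. Trim25, the ubiquitin ligase known for modifying RIG-I, rose by 0.78 (edgeR adjusted p 0.00936), and Zc3hav1, the zinc-finger antiviral protein gene, rose by 0.72 (adjusted p 0.00822). Of the 8 cell death partners of Zbp1 tested, Gsdmd, the pore-forming gasdermin D gene, rose by 0.77 (adjusted p 0.0394). None of the 13 genes around Eif2ak2 in the integrated stress response was called in any comparison, where 0.0338% to 3.55% of all genes were. Of the 12 genes of nucleic acid clearance tested, Dnase2a, the lysosomal DNase gene, was called lower with Ch25h loss in Tau+ (-0.72).

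Outputs of the pathways had the highest list median with tau in Ch25h+/+, 0.63 on the log2 scale, with 3 of 7 called higher. Among these were the ISG15 protease gene Usp18 (1.89) and the antiviral gene Rsad2 (1.33). With Ch25h loss in Tau+ Usp18 (-1.28) and Irf1 (-0.50) were called lower. The chemokine gene Cxcl10 was at 2.14 to 4.5 CPM in Ch25h+/+ Tau+ and at 0.101 to 0.602 CPM in Ch25h+/+ Tau-, and its calls (2.87 with tau in Ch25h+/+ and -1.96 with Ch25h loss in Tau+) are a description, since it was tested because it is high in Ch25h+/+ Tau+. The interferon genes Ifnb1 and Ifna4 had 0 counts in all 16 libraries, where 3 counts would be 0.117 to 0.195 CPM. The pathway calls with tau in Ch25h+/+ share the difference in microglial markers given above (331 to 360.2 against 501 to 632 CPM). Those with Ch25h loss in Tau+ share the split by library class and the difference in microglial markers, and the call with Ch25h loss in Tau- shares the split by library class. The part of either in these calls was not tested.

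**Figure D5:**
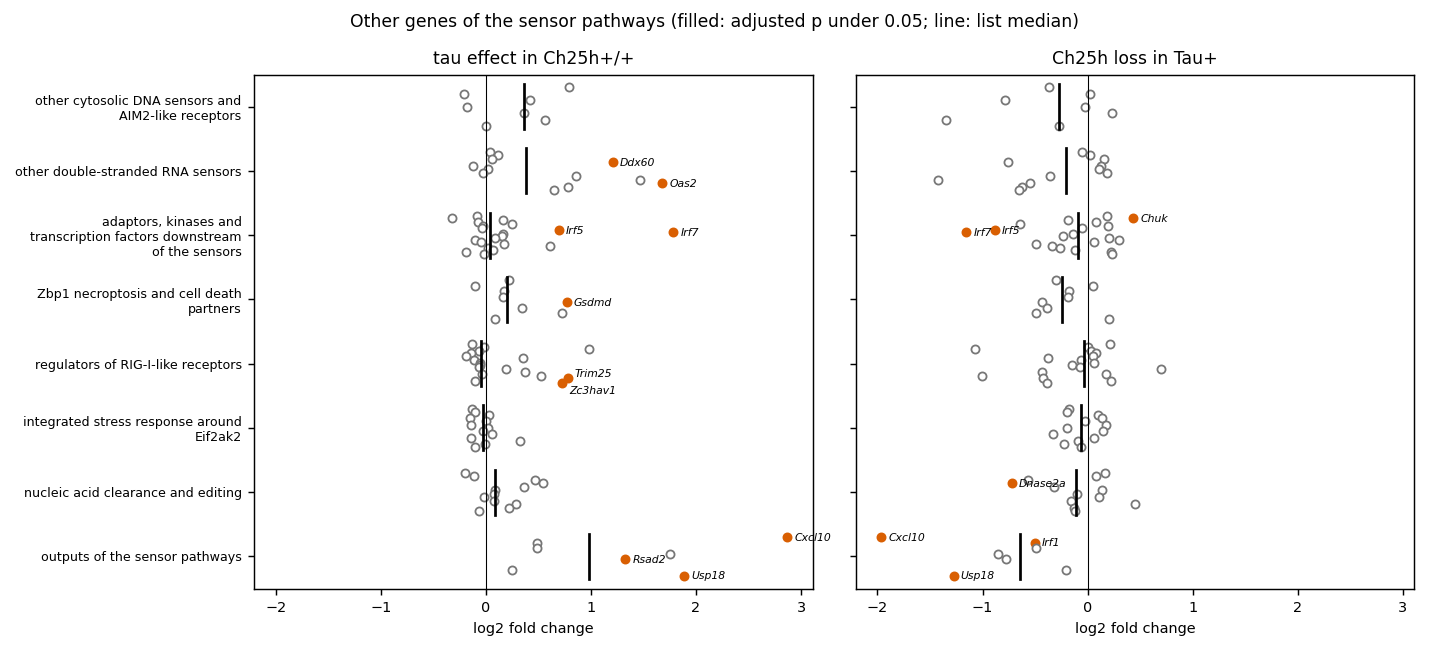
Log2 fold change (x axis) of the tested pathway genes by list (y axis; 1 gene is not drawn), with tau in Ch25h+/+ on the left and with Ch25h loss in Tau+ on the right, filled points for an adjusted p under 0.05 and a black line at the median of all tested genes of each list. Cxcl10 is drawn and is part of its list median here. Filled points lie above 0 on the left, and on the right below 0 for 6 genes, Cxcl10 among them, and above it for Chuk.

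For the 3 called sensor genes, the genes most alike over the 16 libraries were found by the smallest root mean square difference of centred log2(CPM + 0.5), among 16922 genes. Gsdmd (0.176) and Ifitm2 (0.176) were closest to Ddx58, where the median over candidates was 0.387. Rtp4 (0.189) and Irf7 (0.231) were closest to Ifi204 (median 0.699), and Aspg (0.221) and Hk3 (0.230) to Ifi207 (median 0.615). Ifi204 and Ifi207 lay mostly below 0.5 CPM outside Ch25h+/+ Tau+, so the added 0.5 compresses their differences. The genes matched to them rose less with tau in Ch25h+/+ than the 3.24 of Ifi204 and the 2.63 of Ifi207. All distances were picked as the smallest among 16922 genes, and no shared regulation is read from them.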

How the data were processed

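Raw counts per gene symbol and library were deposited by the authors without normalization, in 1 table whose columns were matched to libraries by title. STAR 2.7 and the build GRCm38 (mm10) are named per the submitters' processing notes, and the counting program, annotation and use of strand are not given in the sources used here. Libraries were made from total RNA with a SMARTer mRNA kit, per the labels' protocols. Depth was 15530352 to 25602500 counts per library. Floors cover counting error only.

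The low-count filter filterByExpr (edgeR, group as factor) kept 17736 genes and 99.9% of the counts. Differences were tested with edgeR 4.0.16 in R 4.3.3 (TMM, quasi-likelihood F test, two-sided, 1 mean per group over 16 libraries), adjusted by Benjamini-Hochberg over all genes tested at 0.05. CPM values use TMM-scaled library sizes. Positions come from GENCODE M21 (GRCm38) and promoter windows from RefSeq. The script was tested on simulated data. Alternatives were RLE size factors, other filters (no filter beyond 1 count, or 50 counts on average), DESeq2 1.42.0, limma-voom with quality weights (limma 3.58.1), library class as a covariate or within classes, the 8 libraries compared and leaving out each library. Library class was rRNA-rich at a CT010467.1 level of 1000 CPM of the total or more.

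The sensor genes and the pathway and marker lists were chosen with earlier results of these data known, so their counts are descriptions. Named are the sensor genes, the 2 genes most alike to each called one, pathway genes called in at least 1 comparison, and the check genes Ch25h, Prnp, Mapt, CT010467.1 and Malat1. Outside that rule, Mb21d1, Aim2, Tmem173, Ifnb1, Ifna4 and the markers named were chosen after their values were seen. Some called genes of the lists are not reported here by name.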

Additional observations from a re-analysis of the deposited data

Results flagged for a closer look

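Ddx58 in Ch25h-/- Tau+ replicate 4 was far from the other libraries of its group, at 6.62 CPM against 5.32 to 5.52 CPM. The gap was 0.844 of the range of the group, past Dixon's limit for 4 libraries. It was the only such library among 36 groups of values tested, and chance alone gives about 1 in 20. Without that library the tau difference of Ddx58 in Ch25h-/- was not called either.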

How the results depend on the processing

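Of 1015 recomputed differences of the sensor genes, 978 kept their direction where called and their side of the threshold, 10 had no adjusted p from DESeq2, 13 lost a call, 14 gained one and 0 reversed. With tau in Ch25h+/+ the Ddx58 call held in 16 of 16 fits that left out 1 library (0.72 to 1.0 on the log2 scale) and was lost in the fit of 8 libraries. The Ifi204 call held in 16 of 16, and the Ifi207 call in 4 of 16. Counts of called sensor genes include Zbp1, Ifi204 and Ifi207, which were tested because they are high in Ch25h+/+ Tau+, so they are no support for a change of the sensor genes. That count was 3 with tau in Ch25h+/+ (Ddx58 alone among the well-counted genes), 6 with DESeq2 (Ifih1, Zbp1 and Eif2ak2 added), 5 with limma-voom (Eif2ak2 and Tlr3 added), 4 without a filter (Zbp1 added), 1 with a mean of at least 50 counts (5 of the 9 then tested) and 2 to 4 without single libraries. With Ch25h loss in Tau+ it was 1 without a filter, 2 with limma-voom (Ifi204 and Ifi207) and 0 to 1 without single libraries.

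Counts over all genes moved more. The tau effect in Ch25h+/+ gave 277 calls, 424 with DESeq2, 498 with limma-voom and 160 (without Ch25h+/+ Tau+ replicate 4) to 299. The tau effect in Ch25h-/- gave 7, 28 without a filter, 2 with a mean of at least 50 counts, 14 with DESeq2 and 6 to 13 without single libraries. Ch25h loss in Tau+ gave 629, 1494 with DESeq2, 1883 with limma-voom, 106 with 8 libraries, 10 with the class covariate, 3 within rRNA-poor libraries and 108 (without Ch25h+/+ Tau+ replicate 4) to 1691 (without Ch25h-/- Tau+ replicate 1). Ch25h loss in Tau- gave 182, 522 without a filter, 1124 with DESeq2, 1388 with limma-voom, 1229 with 8 libraries, 0 with the class covariate and 3 (without Ch25h+/+ Tau- replicate 1) to 1306 (without Ch25h+/+ Tau+ replicate 1). The interaction gave 6, 57 without a filter, 55 with DESeq2, 3 with the class covariate and 0 (without Ch25h-/- Tau+ replicate 3) to 22 (without Ch25h+/+ Tau+ replicate 1). The cause was not tested. The class covariate rests on 1 Ch25h-/- library. Depth limits Zbp1, Ifi204 and Ifi207, at 0 to 32 counts per library. The labels carry no replicate numbers, and those used here follow the order in which the samples of each group are listed. No paired analysis was made because the labels give no pairing of libraries.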
